A study of Mus musculus with 44 samples.

Results

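The cytosolic ribosomal protein genes were followed across all TRAP-seq libraries of the Emx1-NuTRAP hippocampus. TRAP (translating ribosome affinity purification) captures the mRNA bound to a tagged ribosome. The genes were taken by symbol from the deposited count table: protein-coding genes named *Rpl* or *Rps* followed by a digit, together with *Rplp0*, *Rplp1*, *Rplp2* and *Rpsa*. The S6 kinases, symbols marked as pseudogenes or related sequences and *Rps19bp1* were left out. This gave 85 genes of 55335 in the table, of which 52 encode proteins of the large subunit and 33 proteins of the small subunit or their paralogues.

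The mice carried Emx1-Cre and the NuTRAP reporter, so that cells with a history of *Emx1* expression, mostly excitatory neurons and also neural progenitors and some of their glial progeny, express an EGFP-tagged ribosomal protein L10a and a tagged nuclear envelope. All were males. Early-life exercise (ELE) mice had a running wheel from postnatal day 21 to 41, and sedentary mice lived in cages without one. RNA came either from both hippocampi of a mouse combined, processed for nuclei and RNA together (simultaneous isolation, SIT; 4 ELE and 4 sedentary libraries), or from 1 hippocampus processed for RNA alone (separate isolation; 3 ELE and 3 sedentary libraries of the left and as many of the right). Each of the 20 libraries came from 1 mouse. The SIT comparison used the 3 ELE and 2 sedentary libraries that the study compared, and values of the ELE library NT6.304 and the sedentary libraries NT7.2.3 and NT7.2.4, which it had left out, are given beside them.

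Ribosomal proteins form the protein part of the small subunit, which reads the mRNA, and of the large subunit, which joins the amino acids. Most are present once in each ribosome, and cells make them in matched amounts. Their mRNAs belong to the TOP class: they begin with a C followed by a run of pyrimidines (C or T), and their loading onto ribosomes follows the mTOR kinase through the binding protein LARP1. In neurons many of these mRNAs are also carried into axons and dendrites. P0 with P1 and P2 (*Rplp0*, *Rplp1*, *Rplp2*) makes the stalk of the large subunit that calls in elongation factors, and S6 (*Rps6*) is the substrate of the S6 kinases. A TRAP level is the amount of an mRNA on tagged ribosomes, so that fewer cells of a type, less mRNA per cell and less loading onto ribosomes cannot be told apart in these samples.

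The start sites of a few of these genes are shown because the TOP tract is the feature that the family is known to share. Each sequence is 10 bases before and 20 bases from the start of the RefSeq transcript (GRCm38.p6), written 5′ to 3′ on the gene's strand. Capitals mark a C followed by at least 4 bases that are each C or T, where that C lies within 5 bases of the annotated start.
*Rpl35*, chr2:39005112-39005141, minus strand: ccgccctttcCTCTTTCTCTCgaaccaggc
*Rps6*, chr4:86857348-86857377, minus strand: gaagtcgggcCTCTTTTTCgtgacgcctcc
*Rplp2*, chr7:141447641-141447670, plus strand: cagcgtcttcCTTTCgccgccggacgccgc
*Rpl13a*, chr7:45128726-45128755, minus strand: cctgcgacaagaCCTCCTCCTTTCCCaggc
*Rps27*, chr3:90213629-90213658, minus strand: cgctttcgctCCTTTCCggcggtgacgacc
*Rps27rt*, chr9:114982720-114982749, minus strand: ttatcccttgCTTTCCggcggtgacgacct
*Rpl22l1*, chr3:28805498-28805527, plus strand: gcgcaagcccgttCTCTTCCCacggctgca
*Rps7*, chr12:28635934-28635963, minus strand: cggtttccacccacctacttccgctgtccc
*Rps7* shows no such tract within 5 bases of its annotated start.

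Of the 65 members with a RefSeq start that were searched, on their own strand, 14 (21.5%) had the C of such a tract at the annotated start, compared with 3.01% of the 27025 genes with an entry. Within 5 bases to either side, 30 members (46.2%) had one, compared with 21.2% of all genes. By subunit, these were 17 of 40 large subunit genes and 13 of 25 small subunit genes. A match describes these letters and the annotated start, which can lie some bases away from the true one.

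Members took between 0.942% and 1.51% of the counts of a library, of which there were between 45895097 and 65767802. Levels are given as CPM, counts scaled to the library total, after TMM normalization, and between genes as CPM per kilobase of exon, averaged over the 17 libraries compared. The length counts every base in any annotated exon of a gene, so it can exceed that of a single transcript. The median over members with any counts was 63.1 CPM per kb, and 71 of all 85 members were at 20 or more. *Rplp1* was highest at 368, followed by *Rps15*, a small subunit protein near the decoding center, at 330 and *Rpl19* at 279. The partners of *Rplp1* in the stalk had lower values, with 103 CPM per kb for *Rplp0* and 63.5 for *Rplp2*. *Rpsa*, the laminin receptor precursor of the small subunit, was at 93.8 and *Rps6* at 98.4.

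*Rpl10a*, which encodes the protein that carries the tag in these mice, had the most counts of any member without regard to length (514 ± 60.2 CPM, SD, n = 17) and had rank 5 per kb, at 212. The counts do not separate the transgene's coding sequence from the resident gene (chr17:28328471-28331033). Of the tested members, *Rpl3l*, *Rpl22l1* and *Rpl24* were lowest, at 0.156, 1.88 and 3.09 CPM per kb. Windows of 100 bases in a member's longest transcript that also occur in transcripts of other genes were found in 77 of the 85 members, and in 23 they made up over 50% of the transcript. Levels of these members are therefore uncertain, since read pairs that fit several genes can be lost or divided. *Rpl24* is among the 23, with 80.1% of its windows shared. In addition, 47.0% of its exonic bases lie under exons of other genes on its strand, so its low level is uncertain.

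Each paralogue of the family was measured below its partner, by margins that differed between pairs. *Rpl3l*, known for striated muscle, had between 0 and 41 counts in a library and stood at 0.156 CPM per kb compared with 119 for *Rpl3*. *Rpl10l* and *Rpl39l* are known for the male germ line, and had 0 counts in every library and 0 to 27 counts, respectively. *Rpl22l1* stood at 1.88 CPM per kb compared with 54.0 for *Rpl22*, or between 2.37% and 4.84% of the pair in the 17 libraries. *Rpl7l1* made up 13.3% to 20.3% of its pair with *Rpl7*, and *Rpl36al* 30.2% to 40.8% of its pair with *Rpl36a*, so that *Rpl36al* came closest to its partner. *Rps27l*, a target of p53, was at 13.0 CPM per kb and *Rps27rt* at 4.0, compared with 50.5 for *Rps27*. *Rps4l*, annotated as a transcribed processed pseudogene and therefore outside the family's rule, reached 29.1 compared with 98.7 for *Rps4x*.

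**Figure D1:**
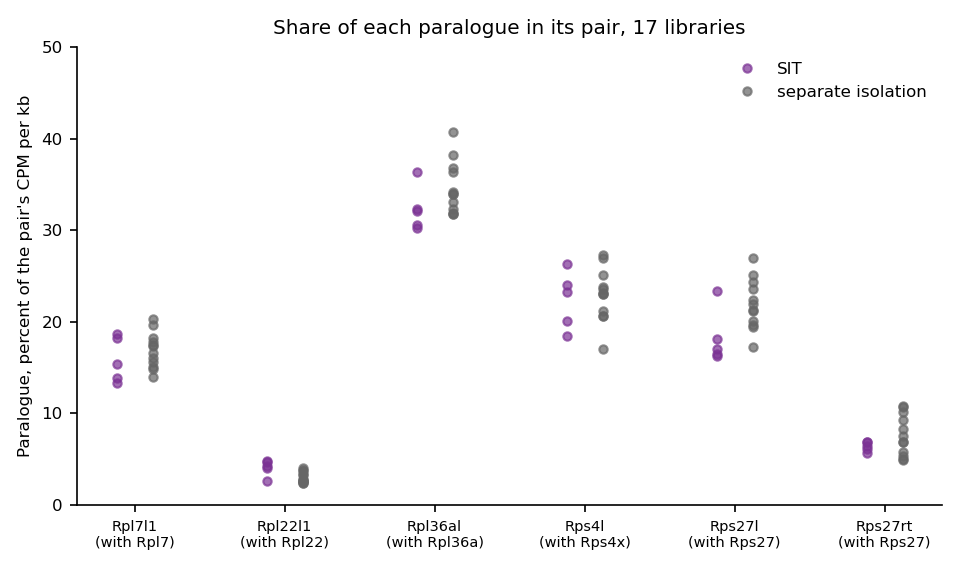
Share of 6 paralogues in the summed CPM per kb of the paralogue and the partner named under it (vertical axis, percent), with a point for each of the 17 libraries compared, SIT in purple and separate isolations in grey. Rpl36al lies highest, between 30.2% and 40.8%, and Rpl22l1 lowest, between 2.37% and 4.84%. The place of Rpl36al depends on the exonic length used for Rpl36a.

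To determine whether ELE changed the ribosomal protein mRNAs on tagged ribosomes in simultaneous isolations, the 3 ELE libraries were compared with the 2 sedentary libraries. Small subunit and large subunit genes were mostly lower in ELE mice. Calls follow the thresholds in the study's methods, which need a difference of more than 1.31-fold in either direction beside an unadjusted p under 0.05, here in edgeR's quasi-likelihood test over all genes. Of the 83 members tested, 19 were called lower and 0 higher. This was 22.9% of the members, compared with 2.11% called lower and 1.54% called higher over all 18238 genes tested. At a limit of 1.3-fold, 21 members were called lower (2.17% of all genes). After adjustment by Benjamini-Hochberg no member passed (its lowest adjusted p = 0.905), and neither did any other gene. Without the filter on low counts, 17 members were called lower, compared with 2% of all genes, and 12 passed after adjustment, as did 105 of all 24687 genes.

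The share of counts on members gives the same comparison without a model of each gene. Sedentary libraries NT6.305 and NT6.306 had 1.51% and 1.35% of their counts on members, with a mean of 1.43% ± 0.115 (SD, n = 2). ELE libraries NT6.303, TG7.4.1 and TG7.4.2 had 1.28%, 1.05% and 1.13%, with a mean of 1.15% ± 0.119 (SD, n = 3). The groups did not overlap, and the share was not tested. The sedentary libraries left out by the study had 1.15% and 1.26%, within the range of the ELE libraries, and the ELE library left out had 1.14%. On the scale of the fits, as the median log2 deviation of members from their own mean, NT7.2.3 and NT7.2.4 stood at 0.14 and 0.31, and the second of these lay above the highest SIT ELE library, NT6.303 at 0.23. Mitochondrial genes took 8.64% and 9.64% of the counts in those sedentary libraries and at most 0.523% in the 18 others.

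**Figure D2:**
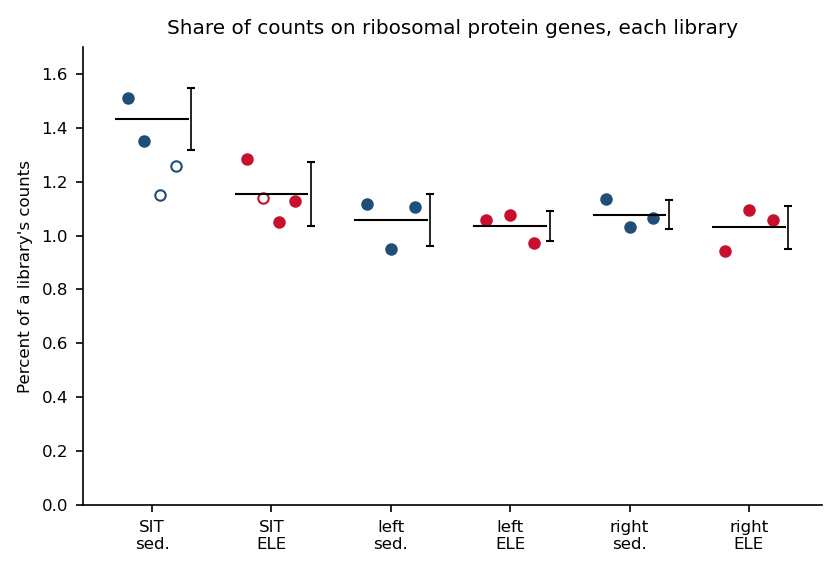
Percent of each library's counts that fell on the 85 ribosomal protein genes (vertical axis from 0), by group. Each point is 1 library (blue sedentary, red ELE), horizontal lines and bars are the mean and SD of the libraries compared, and open points are the 3 SIT libraries that the study left out. The SIT sedentary libraries NT6.305 and NT6.306 lie highest, at 1.51% and 1.35%, and the 12 separately isolated libraries lie between 0.942% and 1.14%.

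Most single members were lower in the ELE libraries. Log2 fold changes were below 0 for 78 of 83 members, compared with 49.8% of all genes tested, and their median was -0.31 compared with 0.00 over all genes. The median was -0.28 for the large subunit and -0.36 for the small subunit, and 7 of 50 large subunit genes and 12 of 33 small subunit genes were called lower. Without the fold threshold, 45 members (54.2%) had an unadjusted p under 0.05 and were lower, compared with 2.86% of all genes. This count fell to 2 without sedentary library NT6.305, to 18 without ELE library TG7.4.1, to 5 with mice numbered NT6 only and to 2 with mouse number as a block (these counts take either direction). ELE and sedentary libraries did not overlap for 48 members (57.8%), all lower in ELE mice, compared with 11.7% of all genes.

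*Rpl13a* (chr7:45125558-45128761) encodes a large subunit protein also known for silencing translation in inflammation. Its levels were 103 and 92.6 CPM in sedentary libraries and 78.9, 61.9 and 74.7 CPM in ELE libraries. The groups did not overlap (log2 fold change -0.45 ± 0.12, SE, n = 3 and 2, adjusted p = 0.905). *Rps7* (chr12:28630854-28635953), a small subunit protein that can bind MDM2, had 304 and 269 CPM in sedentary and 253, 181 and 177 CPM in ELE libraries (-0.50 ± 0.15, adjusted p = 0.905). *Rps19*, whose loss causes Diamond-Blackfan anemia, had 133 and 105 CPM in sedentary and 93.5, 74.2 and 91.3 CPM in ELE libraries (-0.46 ± 0.14, adjusted p = 0.905). For both genes the highest ELE library, NT6.303, lay below the lower sedentary library.

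Of the stalk genes, *Rplp2* had 172 and 159.8 CPM in sedentary libraries and 132, 128 and 134 CPM in ELE libraries. Its groups were well apart, with a log2 fold change of -0.34 ± 0.09 (adjusted p = 0.905), which is below the fold threshold. *Rplp1* was called lower, with 282 and 239 CPM in sedentary and 234, 147 and 195 CPM in ELE libraries (-0.44 ± 0.17, adjusted p = 0.905). *Rplp0* had 199.8 and 169 CPM in sedentary and 189.8, 140.4 and 144 CPM in ELE libraries. Its groups overlapped and it did not pass (-0.23 ± 0.14, adjusted p = 0.957). *Rpsa* was called lower (-0.39 ± 0.14, adjusted p = 0.905), although ELE library NT6.303 at 329 CPM lay just above sedentary library NT6.306 at 327 CPM.

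Other genes called lower included *Rps13*, *Rps23*, *Rps24*, *Rps27*, *Rps27a*, *Rps28* and *Rps3a1* of the small subunit and *Rpl3*, *Rpl9*, *Rpl26*, *Rpl37* and *Rpl37a* of the large subunit, with log2 fold changes from -0.39 to -0.61. Those among them that are not among the smallest p or paralogues were named after their values had been seen. *Rps27a* encodes ubiquitin fused to a ribosomal protein, and *Rpl3* lines the peptidyl transferase center. *Rps23*, a protein of the decoding center, had the largest difference, with 205 and 167 CPM in sedentary and 159, 89.8 and 117 CPM in ELE libraries (-0.61 ± 0.20, adjusted p = 0.905). *Rps6* stood at 197 and 169.7 CPM in sedentary and at 172, 155 and 155 CPM in ELE libraries. Its groups overlapped, and the difference of -0.19 ± 0.10 did not pass (adjusted p = 0.932).

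The 5 members at or above 0 were all of the large subunit: *Rpl10a*, *Rpl22*, *Rpl29*, *Rpl35* and *Rpl7l1*. *Rpl10a* had 539 and 540.0 CPM in sedentary libraries and 509, 616 and 646 CPM in ELE libraries, with a log2 fold change of 0.13 ± 0.11 (adjusted p = 0.982). Its level was 347 and 325 CPM in the sedentary libraries left out and 632 CPM in the ELE library left out. *Rpl22* had a difference of 0.00 ± 0.09, *Rpl7l1* of 0.06 ± 0.11 and *Rpl35* of 0.05 ± 0.15, and none of them passed. For the pairs, the differences were -0.35 ± 0.12 for *Rpl7* beside that of *Rpl7l1*, and -0.18 ± 0.29 for *Rpl22l1* beside that of *Rpl22*. The difference within a pair was not tested.

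**Figure D3:**
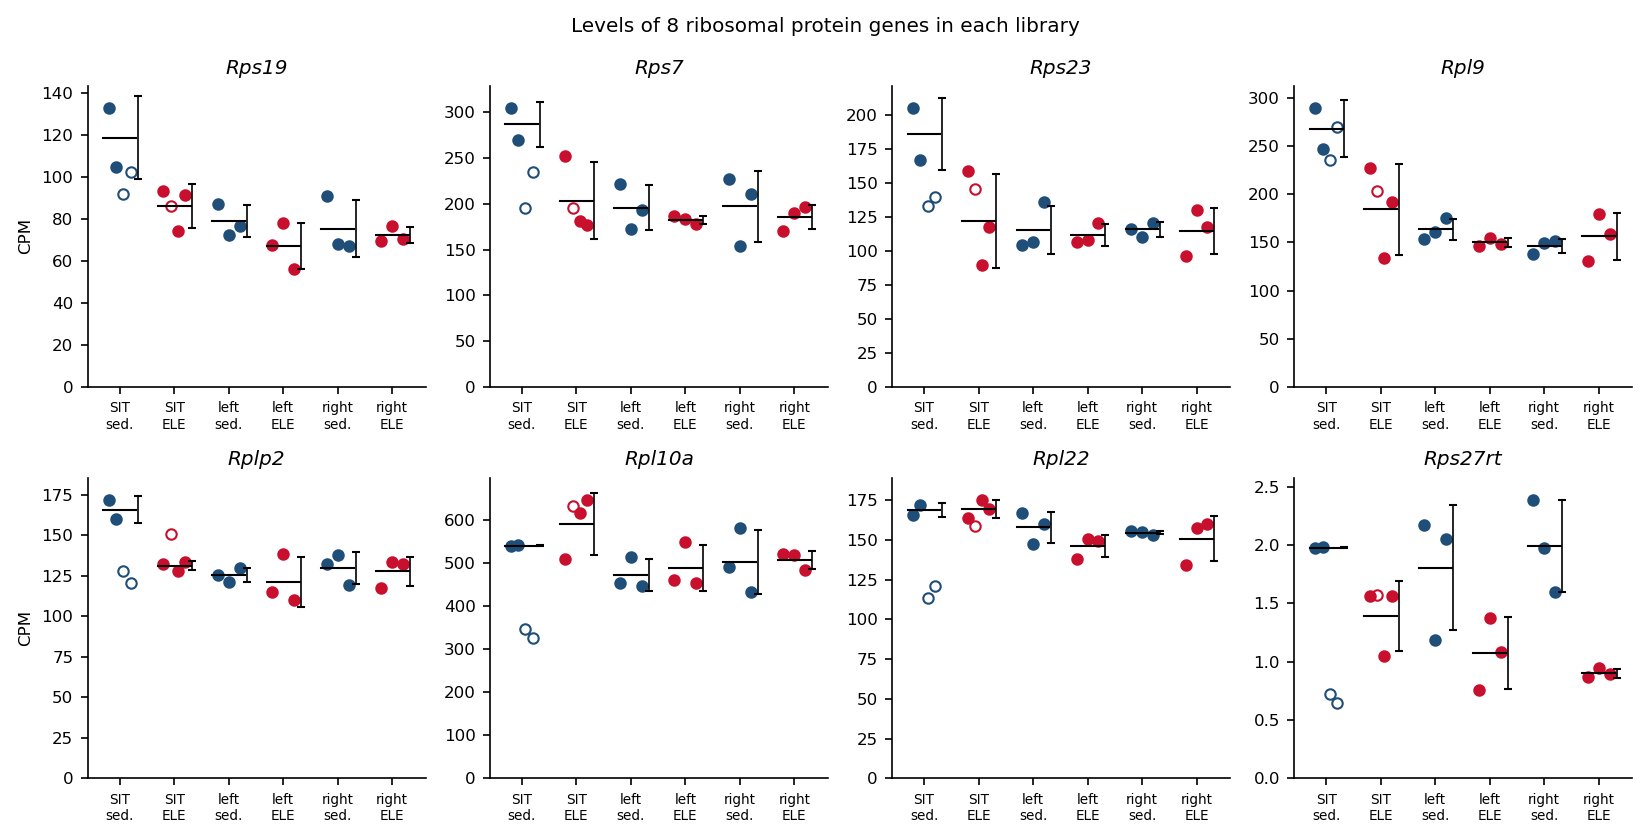
Levels of 8 ribosomal protein genes in each library (vertical axes, CPM from 0), by group. Points are libraries (blue sedentary, red ELE), horizontal lines and bars are the mean and SD of the libraries compared, and open points are the SIT libraries left out by the study. Rps19 runs from 74.2 to 93.5 CPM in the SIT ELE libraries compared and is at 105 and 133 CPM in the SIT sedentary libraries compared, whereas Rpl10a reaches 646 CPM in an ELE library.

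The count of called members depended on single libraries. It was 2 without ELE library TG7.4.1, where 1.88% of all genes were called lower, so that the members were near the share of all genes. It was also 2 without sedentary library NT6.305 (0.694% of all genes lower). It was 44 without ELE library NT6.303 (43 lower, 1 higher, compared with 2.67% and 1.66% of all genes) and 35, all lower, without sedentary library NT6.306 (1.65% of all genes lower). The median log2 fold change stayed between -0.42 and -0.23 over these fits. Mice numbered TG7.4 were all ELE, so that exercise and mouse number cannot be told apart for them. With the mouse number as a block, 1 member was called lower, compared with 3.02% of all genes, and the median was -0.14. Among the 4 mice numbered NT6, including the ELE library left out by the study, 2 members were called lower, which is not above the 3.06% of all genes called lower, the median was -0.23 and 75 of 83 members were below 0. With all 8 SIT libraries, 14 members were called lower and 1 higher, compared with 5.41% and 2.29% of all genes, and the median was -0.25.

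Markers of excitatory neurons were abundant in all 20 libraries (*Slc17a7*, the vesicular glutamate transporter, 2776 to 4383 CPM; *Camk2a* 2109 to 5257 CPM). *Gfap* at 689 to 4102 CPM and *Mbp* at 1086 to 2063 CPM were also present, *Gad1* was at 31.5 to 279 CPM and *C1qa* at 0.144 to 34.4 CPM. The sedentary libraries left out, NT7.2.3 and NT7.2.4, which enter the fit with all 8 SIT libraries, stood apart. With them the summed level of the inhibitory neuron markers reached 898 CPM and that of the microglial markers 208 CPM, compared with at most 114 and 15.3 CPM in the other 18 libraries. In SIT, 3 of 8 choroid plexus markers were called lower in ELE mice, where 2.11% of all genes were called lower. Their summed level was 134 to 581 CPM in ELE and 595 to 677 CPM in sedentary libraries, and none was at 0. Of the meningeal fibroblast markers, 2 of 7 tested were called lower, with a summed level of 28.0 to 49.0 CPM in ELE and 50.3 to 50.4 CPM in sedentary libraries. Of the inhibitory neuron markers, 2 of 8 were called lower, with 66.4 to 79.9 and 81.3 to 81.9 CPM, and no marker of astrocytes, oligodendrocytes or microglia was called. Their part in the differences of the ribosomal protein genes was not tested.

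In the left hippocampus, no difference between ELE and sedentary mice was called for any member. Of the 83 members tested 0 were called in edgeR's test, compared with 2.07% of all 17750 genes. At an unadjusted p under 0.05 alone, 1 was higher and 2 were lower, compared with 1.99% and 1.95% of all genes, and none passed after adjustment (lowest adjusted p = 0.96). DESeq2 also called 0 members. No marker of the cell types listed was called either, although the summed level of the oligodendrocyte markers was 3042 to 3383 CPM in ELE and 3452 to 3998 CPM in sedentary libraries, without overlap. Its part in these values was not tested. The median log2 fold change was -0.05 for the large subunit and -0.05 for the small subunit, and 53 of 83 members were below 0, compared with 49.1% of all genes. The share of counts on members was 1.04% ± 0.0559 in ELE and 1.06% ± 0.0949 in sedentary mice (SD, n = 3 each). Leaving out single libraries gave 3 members called lower without ELE library TG9.1.4 (1.75% of all genes lower) and 2 without sedentary library TG9.1.2 (0.699%). It gave 1 called higher without ELE library TG9.2.2 (2.58% of all genes higher) and 1 without sedentary library TG9.2.4 (0.782%). The direction of the median also rested on single libraries, since 37 of 83 members were below 0 without TG9.2.2 (median 0.01) and 40 without sedentary library TG7.3.4 (median 0.0042).

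The member with the smallest p on the left was *Rps27a*, with 156, 138 and 158 CPM in sedentary and 126, 135 and 113 CPM in ELE libraries. Its groups did not overlap, and its log2 fold change was -0.27 ± 0.09 (adjusted p = 0.96). *Rpl5*, which with *Rpl11* carries 5S rRNA into the ribosome, had 159, 148 and 176 CPM in sedentary and 141, 141 and 137 CPM in ELE libraries (-0.20 ± 0.08, adjusted p = 0.96). Both values lie below the fold threshold. *Rpl35* went the other way, with 28.0, 26.2 and 34.8 CPM in sedentary and 38.9, 43.5 and 33.03 CPM in ELE libraries. Its groups overlapped, and its log2 fold change of 0.38 ± 0.14 (adjusted p = 0.96) fell just short of the threshold. *Rps27rt* (-0.76 ± 0.36, adjusted p = 0.96) did not pass.

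In the right hippocampus, 1 of 82 members was called, lower in ELE mice (1.22%, compared with 1.23% of all 17570 genes called lower). The called gene was *Rps27rt* (chr9:114982366-114982739), whose transcript shares 89.5% of its 100-base windows with other genes. It had 2.39, 1.98 and 1.60 CPM in sedentary and 0.865, 0.944 and 0.892 CPM in ELE libraries. The groups were apart, with a log2 fold change of -1.14 ± 0.32 (adjusted p = 1.0), and the gene had between 36 and 125 counts in a library. *Rps27* itself had 55.0, 46.2 and 49.2 CPM in sedentary and 39.3, 50.2 and 44.2 CPM in ELE libraries (-0.17 ± 0.12, adjusted p = 1.0), with groups that overlapped.

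*Rps28*, a small protein at the mRNA exit of the small subunit, had 41.6, 39.4 and 34.5 CPM in sedentary and 27.8, 34.9 and 29.3 CPM in ELE libraries on the right. A single ELE library reached the lowest sedentary library, and the log2 fold change was -0.32 ± 0.12 (adjusted p = 1.0), below the fold threshold. *Rpl17* (-0.19 ± 0.10, adjusted p = 1.0), *Rps14* (-0.17 ± 0.10, adjusted p = 1.0) and *Rpl22l1* (-0.38 ± 0.23, adjusted p = 1.0) did not pass. The median over members was -0.03, with 58 of 82 below 0, compared with 51.3% of all genes. This direction rested on single libraries, since 32 of 83 members were below 0 without ELE library TG7.3.1 (median 0.02) and 39 without sedentary library TG7.3.3 (median 0.0049). There were 2 members called lower without ELE library TG9.1.3 and 2 without sedentary library TG9.2.3, compared with 1.49% and 0.91% of all genes. The share of counts on members was 1.03% ± 0.0797 in ELE and 1.078% ± 0.0544 in sedentary mice (SD, n = 3 each). On the right, 5 of 7 choroid plexus markers were called lower in ELE mice. Their summed level was 19.8 to 47.0 CPM in ELE and 36.9 to 1184 CPM in sedentary libraries, with overlap. The sedentary mean was 439 CPM (n = 3), and 1 library at 1184 CPM lay far above it. In all ELE libraries 1 marker was at 0. Also called lower were 2 of 7 meningeal, 1 of 7 microglial and 1 of 8 vascular markers, and 1 of 8 inhibitory neuron markers was called higher. Over all genes 1.23% were called lower and 0.746% higher. Their part in these values was not tested.

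**Figure D4:**
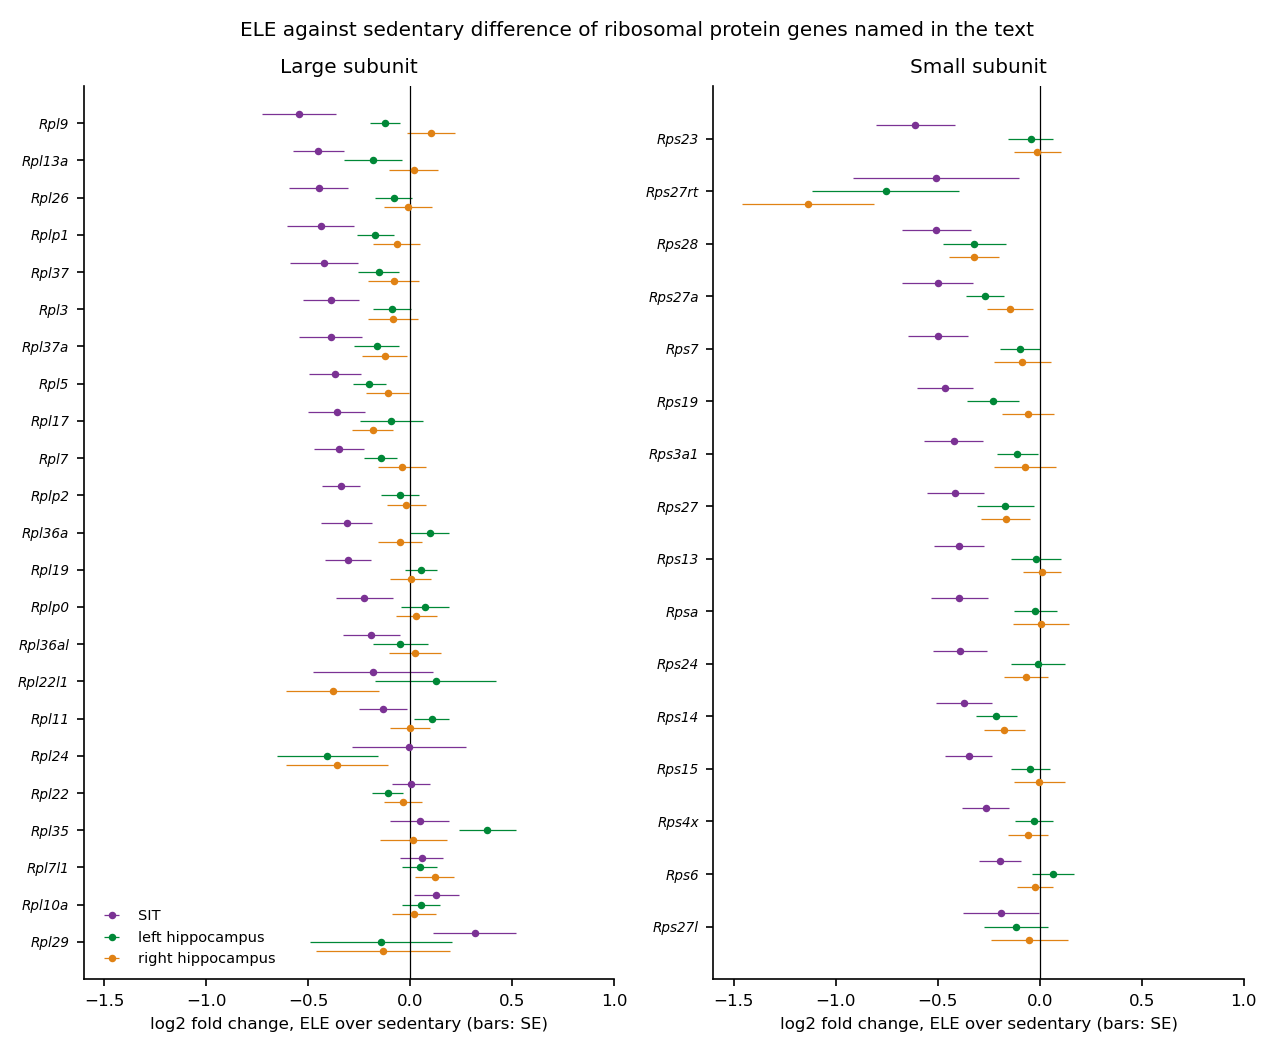
Log2 fold change of ELE over sedentary mice (horizontal axis, bars show SE) for 39 ribosomal protein genes named in the text and tested in all comparisons, with large subunit genes in the left panel and small subunit genes in the right, and SIT in purple, the left hippocampus in green and the right in orange. The SIT points lie mostly below 0, whereas those of the left and right hippocampus lie on both sides of 0. Over all members tested, and not those drawn alone, the medians are -0.05 on the left and -0.03 on the right.

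The difference between ELE and sedentary mice was next compared between hemispheres over the 12 separately isolated libraries. An interaction was called for 0 of 83 members, compared with 2.2% of all 18810 genes, and 0 had an unadjusted p under 0.05 in edgeR's test. DESeq2 also called 0, and 1 was called lower without left sedentary library TG9.2.4 (1.26% of all genes lower). With both hemispheres in 1 model, 1 member was called lower (1.2%, compared with 1.21% of all genes called lower), which was again *Rps27rt* (-0.94 ± 0.23, adjusted p = 0.919). Counting this gene, 8 members (9.64%) had an unadjusted p under 0.05 and were lower in ELE mice, compared with 2.83% of all genes. In either direction, this count was 4 without TG9.2.2 or TG9.2.4 and 14 without TG9.1.1. Of these, *Rps28* had a log2 fold change of -0.32 ± 0.10 (adjusted p = 0.919), *Rps27a* of -0.21 ± 0.07 (adjusted p = 0.919) and *Rps14* of -0.19 ± 0.07 (adjusted p = 0.919). Over both hemispheres 3 were called without TG9.1.4 and 2 without each of TG7.3.4, TG7.3.1, TG7.3.3 and TG9.2.3, all lower, compared with 0.946% to 1.49% of all genes.

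**Figure D5:**
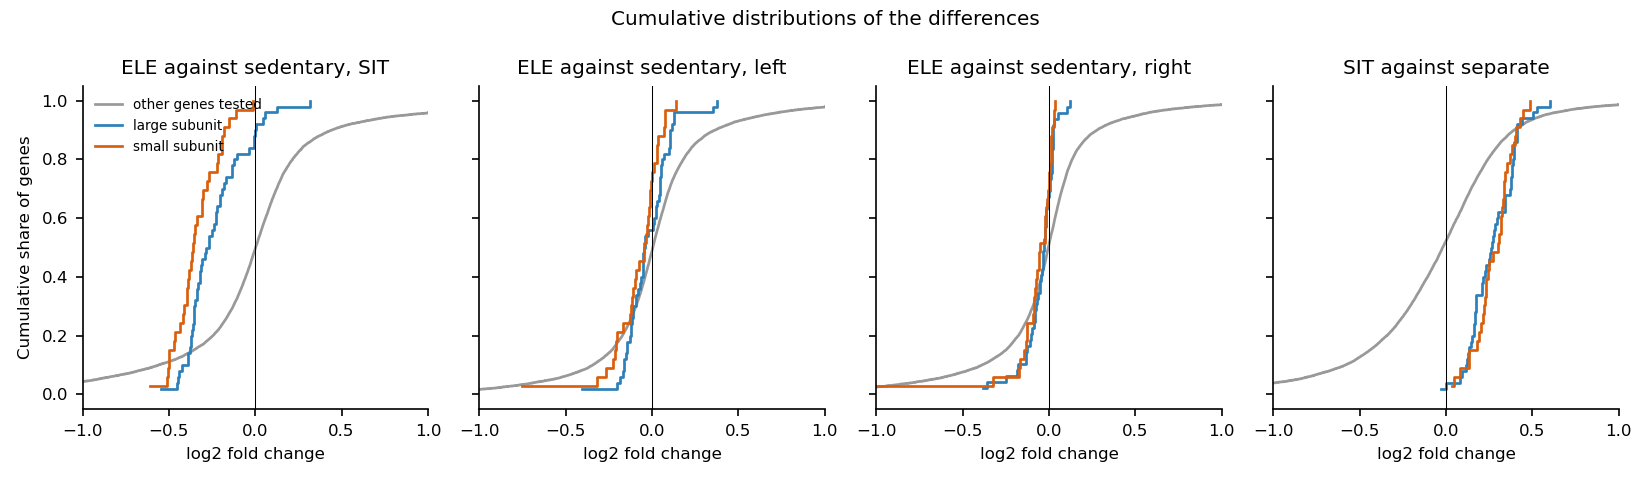
Cumulative share of genes (vertical axis) by log2 fold change (horizontal axis, shown from -1.0 to 1.0) for large subunit genes (blue), small subunit genes (orange) and the other genes tested (grey), with a panel for ELE against sedentary mice in SIT, on the left and on the right, and 1 for SIT against separate isolations. In SIT the medians of the large and small subunit are -0.28 and -0.36, and between isolations 0.26 and 0.30; Rps27rt on the right, at -1.14, lies outside the axis.

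Between isolations, ribosomal protein genes were higher in simultaneous than in separate isolations. With exercise in the model, 15 of 83 members were called higher and 0 lower (18.1%, compared with 4.59% of all 18440 genes called higher and 9.98% called lower). After adjustment 59 members passed (71.1%, compared with 26% of all genes), and 37 without sedentary library NT6.305. The median log2 difference was 0.27 compared with -0.02 over all genes, at 0.26 for the large subunit and 0.30 for the small subunit. Only *Rplp0* was below 0 (-0.03 ± 0.08), compared with 52% of all genes. Simultaneous isolations also used both hippocampi, another homogenization and mice with other numbers, which cannot be told apart from the isolation. Cell type markers and mitochondrial counts differed as well. The summed level of the astrocyte markers was 4271 to 6659.7 CPM in the 5 SIT libraries and 6149 to 9599 CPM in the 12 separately isolated libraries, and that of the inhibitory neuron markers was 66.4 to 81.9 and 42.4 to 79.0 CPM. Mitochondrial genes took 0.245% to 0.523% and 0.0704% to 0.122% of the counts. Their part in this difference was not tested.

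*Rps27* was at 79.3 and 74.8 CPM in SIT sedentary, 66.6, 48.1 and 59.0 CPM in SIT ELE and 39.3 to 56.0 CPM in the 12 separately isolated libraries (0.49 ± 0.09, adjusted p = 0.000281). *Rpl22l1* had the largest difference of a member, with 3.19 to 5.85 CPM in the 5 SIT libraries and 2.37 to 4.39 CPM in separate isolations (0.60 ± 0.17, adjusted p = 0.0106), and its ranges overlapped. *Rps19* (0.45 ± 0.09), *Rpl13a* (0.41 ± 0.09), *Rplp1* (0.39 ± 0.09) and *Rps28* (0.43 ± 0.10) were among the called genes. *Rpl10a* differed by 0.21 ± 0.07 (adjusted p = 0.0246), below the fold threshold. The count of members called higher was 6 without sedentary library NT6.305, 8 without ELE library NT6.303 and 32 without ELE library TG7.4.1, compared with 4.73%, 5.26% and 4.88% of all genes.

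Many of these genes are short. Their median exonic length was 1770 bases compared with 3810 over all genes tested in SIT. Of 368 other genes with at most 2000 exonic bases and at least 50 CPM, 44 were called higher and 3 lower between isolations, with a median of 0.20. In the ELE comparison in SIT the median of these other genes was -0.04, with 7 called lower and 0 higher, beside -0.31 for the ribosomal protein genes. On the left it was -0.05 and on the right -0.01.

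Whether the difference between ELE and sedentary mice itself differed between isolations was tested over the 17 libraries. This comparison was chosen with the other results known. It was called, and lower in SIT, for 4 members (4.82%, compared with 1.94% of all genes called lower), and no member passed after adjustment. These were *Rps23* (-0.57 ± 0.20, adjusted p = 0.979), *Rpl9* (-0.52 ± 0.19, adjusted p = 0.979), *Rpl26* (-0.40 ± 0.16, adjusted p = 0.979) and *Rps7* (-0.40 ± 0.18, adjusted p = 0.982). At an unadjusted p under 0.05 alone 21 members (25.3%) were lower, compared with 2.49% of all genes, and the median was -0.25. In either direction, this count was 1 without sedentary library NT6.305, 4 without ELE library TG7.4.1 and 49 without ELE library NT6.303. The count of members called lower was 1 without ELE library TG7.4.1 (3.06% of all genes lower) or sedentary library NT6.305 (1.37%), in neither case above the share of all genes. It was 20 without sedentary library NT6.306 (2.02%) and 35 without ELE library NT6.303 (2.9%). Among separately isolated libraries, it was 2 without TG9.1.2, 7 without TG7.3.3, 7 without TG7.3.4, 9 without TG9.2.2 and 10 without TG7.3.1, compared with 1.85% to 2.28% of all genes. With all 8 SIT libraries it was 15, of which 12 were lower and 3 higher, compared with 5.17% and 2.61% of all genes.

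Genes that act with the ribosomal proteins were compared in the same fits, from lists of known members. *Fau*, which encodes a small subunit protein fused to a ubiquitin-like protein, was called lower in SIT (-0.40 ± 0.12, adjusted p = 0.905), and is a ribosomal protein outside the naming rule. *Rack1*, a scaffold on the small subunit, was not called (-0.34 ± 0.13, adjusted p = 0.905). Of 17 other TOP mRNAs, which encode translation factors and related proteins, 0 were called in SIT, on the left or on the right, at medians of -0.13, -0.03 and -0.01. In SIT 14 of them were below 0, and the 3 with an unadjusted p under 0.05, *Eif3f* (-0.35 ± 0.12, adjusted p = 0.905), *Eef1b2* (-0.31 ± 0.13, adjusted p = 0.905) and *Pabpc1* (-0.35 ± 0.15, adjusted p = 0.906), lay below the fold threshold.

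Of 20 genes for ribosomal RNA transcription and ribosome assembly, 0 were called in SIT, on the left or on the right, and their medians were -0.01, 0.06 and -0.05. Of 21 regulators of TOP mRNAs and S6 kinases, 0 were called in SIT and on the left, and 1 was called higher on the right. There 0.746% of all genes were called higher. The medians were 0.07, 0.06 and 0.04 in SIT, on the left and on the right. The called gene was *Rps6ka3*, a kinase of the RSK family, which was higher in ELE mice on the right (0.42 ± 0.13, adjusted p = 1.0) and at 0.31 ± 0.09 on the left (adjusted p = 0.96), below the fold threshold there.

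The difference between members with and without the TOP tract near the annotated start was not tested. The 30 members with one had a median log2 fold change of -0.27 in SIT with 4 called, and the 33 tested members without one a median of -0.34 with 10 called. Over all genes 2.11% were called lower, and these calls are among those lost when single libraries are left out. Of the genes printed above with a tract, *Rpl35* stood at 0.05, *Rpl22l1* at -0.18, *Rps6* at -0.19, *Rplp2* at -0.34, *Rps27* at -0.41, *Rpl13a* at -0.45 and *Rps27rt* at -0.51. *Rps7*, with no tract within 5 bases of the start, stood at -0.50, within the range of those with one.

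The deviation of members from their own mean was compared between libraries. Over the 82 members with a mean of at least 1 CPM, the median SD of a member across the 17 libraries was 0.21 on the log2 scale. By the median deviation over members, library NT6.305 lay 0.43 above the average of the 17 libraries, with 82 of 82 members above their own mean, and NT6.306 and NT6.303 lay 0.27 and 0.23 above it. The lowest were right ELE library TG7.3.1 at -0.22 and left ELE library TG9.2.2 at -0.20, where 4 and 1 of the 82 members were above their mean.

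*Rpl29* (chr9:106429454-106431568), a large subunit protein chosen here after its values had been seen, had another pattern. It had 123 and 131 CPM in ELE libraries TG7.4.1 and TG7.4.2 and 76.5 CPM in ELE library NT6.303, compared with 95.9 and 81.2 CPM in sedentary libraries NT6.305 and NT6.306. On the left, libraries TG7.3.4 (sedentary) and TG7.3.2 (ELE) had 134 and 106 CPM and the other 4 libraries 56.0 to 66.1 CPM. On the right, TG7.3.3 (sedentary) and TG7.3.1 (ELE) had 154 and 119 CPM and the other 4 had 64.2 to 74.0 CPM. The 8 libraries of mice numbered TG7 or NT7, including NT7.2.3 and NT7.2.4, thus had 106 to 154 CPM, and the 12 libraries of mice numbered NT6 or TG9 had 56.0 to 95.9 CPM, in ELE and sedentary mice alike. NT7.2.3 and NT7.2.4, which stood apart in mitochondrial counts and markers, lay within the range of the other 6. The ratio of the means was 1.86. *Rpl29* was the only one of 82 members whose libraries separated by these numbers, and 2 of 14127 genes that averaged 1 CPM or more (0.0142%) were higher and 6 (0.0425%) lower without overlap. This split was made after the values had been seen and was not tested. The ELE difference of *Rpl29* in SIT, 0.32 ± 0.20 (adjusted p = 0.957), compared mice of both kinds.

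Pseudogenes of the family, taken here as rows named by a member's symbol followed by ps, are listed as genes of their own in the table. Most are annotated as processed pseudogenes, although some, such as *Rpl10-ps3*, are annotated as protein-coding. There were 298 such rows, of which 43 had a mean of at least 1 CPM and 90 had 0 counts, and together they held 314 CPM compared with 11026 CPM for the members. The highest was *Rpl10a-ps1* (chr1:64993951-64994604) at 87.1 CPM, or 16.9% of *Rpl10a*, with an ELE difference in SIT of 0.10 ± 0.13 (adjusted p = 0.999). *Rps6-ps4* at 31.5 CPM had -0.42 in SIT (adjusted p = 0.905) and *Rpl31-ps8* at 14.2 CPM had -0.69 (adjusted p = 0.905), both called lower. *Rpl3-ps1* and *Rpl15-ps3* lay between these at 18.9 and 14.8 CPM. Read pairs of a pseudogene and its parent cannot always be told apart.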

How the data were processed

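Polysome-bound mRNA was captured with anti-GFP beads in the presence of cycloheximide, and poly(A) libraries were made from 15 ng of RNA with a directional kit. The authors aligned paired reads with STAR 2.7.3a to GRCm38.p6, removed duplicates with Picard 1.87 and deposited counts per gene, summed by strand with summarizeOverlaps. Read pairs with the same ends were thus counted once, which bounds the counts of short, abundant transcripts from above. Gene names came from GENCODE vM21 (55154 of 55335 IDs matched), and 24 columns of wild-type samples were not used.

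Counts were tested with edgeR 4.0.16 (R 4.3.3): TMM normalization, filterByExpr and quasi-likelihood fits over all genes, with Benjamini-Hochberg adjustment. SE is the absolute log2 fold change divided by the square root of F. Each library held 45895097 to 65767802 counts, and counting error is small beside the spread between mice for most members. The SIT libraries used by the study were found from its supplementary lists, which give a mean normalized count per gene over all libraries compared. Of 24 subsets, 1 matched these means for 633 of 633 genes. Alternatives were DESeq2 1.42.0, its size factors, no mitochondrial genes, no filter, a replicate block, all SIT libraries and leaving out each library. Scripts were tested on simulated data.

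The members and gene lists were chosen with earlier results of these data known. Genes were named by a rule: the 5 smallest p in each of the SIT, left and right comparisons, paralogue pairs, stalk genes and *Rpsa*, *Rpl10a*, *Rps6*, and the 3 highest and lowest levels per kb. Others are marked as chosen after their values were seen. Results of some genes that this rule names are not reported here; they stay in the counts over all members.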

Additional observations from a re-analysis of the deposited data

Results flagged for a closer look

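In 3 of 72 gene and group combinations of 4 SIT libraries, 1 library stood apart from the others by Dixon's criterion, which chance gives in about 1 in 20. *Rps27rt* was at 1.05 CPM in ELE library TG7.4.1 and at 1.56 to 1.57 CPM in the other ELE libraries. *Rpl7* was at 266 CPM in ELE library NT6.303 and at 201 to 212 CPM in the others, and *Rps4x* was at 198 CPM in the same library and at 156 to 163 CPM in the others.

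The ELE difference was lower in simultaneous than in separate isolations, by an interaction term at an unadjusted p under 0.05 and past the fold threshold, for *Rps23* (-0.57), *Rpl9* (-0.52), *Rpl26* (-0.40) and *Rps7* (-0.40), and none passed after adjustment. Without 1 library at a time this count ran from 1 to 35.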

How the results depend on the processing

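In SIT, a replicate block by mouse number left 1 member called lower and a median of -0.14. Correlations of the deviations of same-numbered mice were 0.02 to 0.20 on the left and -0.08 to 0.22 on the right. Those of mice with other numbers ran from -0.17 to 0.06 and from -0.22 to 0.27. Same-numbered mice lay above all others for TG7.3 on both sides and TG9.2 on the left. They did not for TG9.1 on either side or TG9.2 on the right. With so few mice these values do not decide whether the numbers are pairs, and the main fits took none there. In SIT no such correlation was computed, since 1 number is all ELE. The block changed no call count on the left, on the right, between hemispheres or over both hemispheres. With mice numbered NT6 only, an alternative added after the data had been seen, 2 members were called. With all 8 SIT libraries, 15 members were called for the exercise by isolation term (12 lower, 3 higher). Leaving out 1 library at a time gave 2 to 44 calls in SIT, 0 to 3 on the left, 1 to 2 on the right, 0 to 1 between hemispheres, 1 to 3 over both hemispheres, 6 to 32 between isolations and 1 to 35 for exercise by isolation (2, 7, 9, 10 and 20 among them). Medians ran from -0.42 to -0.23 in SIT, -0.10 to 0.01 on the left and -0.09 to 0.02 on the right. A block could not be fitted between isolations, since the numbers used for it (NT6 and TG7.4 against TG7.3, TG9.1 and TG9.2) do not recur between them. A limit of 1.3-fold, also added after the data had been seen, gave 2 calls over both hemispheres, and its other counts stayed within 1.5 times. These 2 of 83 members were lower in ELE mice, compared with 1.24% of all genes called lower. Each lone library left in a group is assumed to vary like the others. With 2 or 3 mice a group, single genes are weakly resolved.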
